A study of Mus musculus with 20 samples.

Results

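The comparison described here set fibroblasts in medium of the irradiated arm of APTK organoids against fibroblasts in plain APTK medium. Its 8 libraries, 4 per group, were taken by their labels from a series of 20 libraries in 5 groups on inflammatory fibroblasts and therapy resistance in rectal cancer. The cells were colon fibroblasts of C57BL6/J mice grown flat in culture. In the irradiated APTK group the cells spent 24 h in APTK organoid medium of an arm that was given 5 fractions of 2 Gy. In the APTK group they spent the same time in APTK organoid medium without irradiation. A second pair, irradiated APTKA and APTKA medium, was used where effects were compared between organoid lines. These libraries and those of untreated fibroblasts, titled wild-type fibroblasts in the labels, also entered the estimate of the spread shared by all 20 libraries. Every call rests on this estimate unless another fit is named. The letters of APTK and APTKA, the organoid lines, are not expanded in the labels. It is not stated which cells received the dose, organoids or fibroblasts, and no group was irradiated without organoid medium, so a direct effect of the dose on the fibroblasts and one of the medium cannot be told apart. Nothing ties replicates I to IV to separate animals or cultures. The p-values therefore reflect library-to-library variation that could be technical.

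Ionising radiation breaks DNA, and a cell that has been hit usually stabilises the transcription factor p53, whose targets halt the cell cycle or start cell death. Cells that only receive the secretions of irradiated neighbours can respond in other ways, through cytokines, interferons, growth factors and changed nutrient supply. Fibroblasts of the colon wall build the matrix, supply niche factors to the epithelium and release chemokines. Their response to nutrient shortage runs in part through the transcription factor ATF4 (the integrated stress response), and their response to viral or self nucleic acid through type I interferon.

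The defining markers of fibroblasts, epithelium, blood cells and endothelium fitted the label, while smooth muscle genes were expressed as well. Col1a1 lay between 7821 and 12985 CPM (counts scaled to library size) over the 8 libraries. Epcam (epithelium) reached at most 0.0550 CPM and Ptprc (blood cells) at most 0.195 CPM, while Cdh5 (endothelium) had no count in any of the 8. No member of the 11 marker lists of other cell types or of fibroblasts passed the test, where 1.38% of all genes did. Without irradiated APTK IV, 8.45% of all genes passed. Among the markers, Fap (log2 fold change 0.44) and Etv1 (0.63) then rose, and Trac (-0.66), Tubb3 (-0.47) and Notch3 (-0.34) fell. The summed level of the fibroblast list ranged from 58464 to 67927 CPM in irradiated APTK and from 63870 to 71273 CPM in APTK libraries. That of the epithelial list ranged from 2.14 to 2.58 CPM in irradiated APTK and from 1.74 to 2.79 CPM in APTK. The pericyte and smooth muscle list summed to 2048.5 to 2403 CPM in irradiated APTK and to 2103 to 2410 CPM in APTK. Its member Actg2 averaged 900 and 879 CPM. Whether fibroblasts or other cells made this RNA was not tested. In bulk RNA fewer cells of a kind and less RNA per cell cannot be told apart. Library totals were 17.3 to 29.2 M counts in irradiated APTK and 24.0 to 27.1 M counts in APTK. Mitochondrially encoded RNA took 1.21, 1.23, 0.534 and 1.01% of counts in irradiated APTK I to IV, against 0.765 to 0.922% in APTK libraries, and its part in the results was not tested.

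On the genes that set irradiated APTK I to III apart from plain APTK, irradiated APTK IV lay near plain APTK. When IV was left out, 1271 of 15037 genes differed between irradiated APTK I to III and APTK (8.45% of genes tested). On 1270 of these that were also tested with IV, the position of IV was measured on a scale where the APTK mean is 0% and the mean of I to III is 100%. Its median position was 4.72%, with quartiles at -23.5 and 35.3%, and it fell within the APTK range for 583 of them (45.9%). The same measure for the other irradiated libraries, each on the genes called without it, gave a median of 103% for I (33 genes), 84.7% for II (122 genes) and 89.1% for III (47 genes). For plain libraries, with their own group at 100%, it was 60.9% for APTK I (198 genes) and 90.1 to 97.8% for APTK II to IV. The fits for these other 7 libraries still held IV, so their genes were called with IV in its group. Their gene sets are unlike that of IV, and its position cannot be compared directly with theirs. The 4 irradiated APTK libraries also differed more among themselves, with a mean SD per gene of 0.235 on the log2 scale against 0.155 for APTK. In the remaining groups this SD was 0.154 to 0.176. The spread shared by all groups may therefore be too small for this comparison, and its p-values too low. Among pairs with its own group only, the counts of IV differed least from those of irradiated APTK I (chi-square per degree of freedom 17.1, against 65.7 with II and 75.7 with III). Library II stood apart on the first principal component of the 8 libraries (30.2% of the variance), at -42.2 against -5.00 to 13.2 for the other 7. On the third (13.3%) IV was at 21.2, away from the plain libraries at -7.58 to -2.09. Over all genes tested, the root mean square log2 distance from the APTK mean was 0.347, 0.436, 0.323 and 0.284 for irradiated APTK I to IV. For plain libraries, each against the others, this distance was 0.241 to 0.269.

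**Figure D1:**
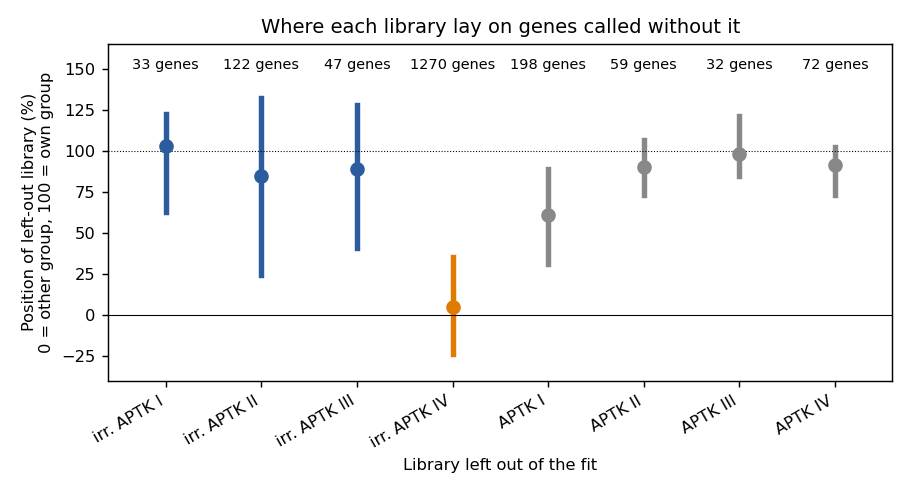
Position of each library (x axis) on the genes called in the fit without it, in percent of the distance from the other group's mean (0) to the mean of its own group's remaining libraries (100). Points are medians over genes, bars the quartiles, with the number of genes above. Irradiated APTK IV sits at 4.72%, near the plain group, while the other 7 libraries sit between 60.9 and 103%. The gene sets are unlike, because the fits for the other 7 libraries still held IV.

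The whole comparison, IV included, asked which genes differ between the irradiated arm and plain APTK medium. Of 14820 genes tested with edgeR's quasi-likelihood test, 205 differed at a 5% false discovery rate after Benjamini-Hochberg adjustment (1.38% of genes tested). Of these, 81 rose (0.547%) and 124 fell (0.837%) with irradiated APTK medium. The changes were small: the median absolute log2 fold change of the called genes was 0.44, and 9 rises and 14 falls reached 2-fold. At an unadjusted p under 0.05 there were 2213 genes, and the median log2 fold change over all genes tested was 0.0036. The 4 irradiated and 4 plain libraries did not overlap for 144 of the called genes, against 5.69% of all genes tested. All 205 genes were also called without IV, where 693 genes rose (4.61%) and 578 fell (3.84%). Among the 205, IV lay within the APTK range for 54, outside it on the side of I to III for 148 and beyond it on the other side for 3. Leaving out 1 library at a time gave 32 (without APTK III) to 1271 calls (without irradiated APTK IV). A fit of the 8 libraries alone, with no spread borrowed from other groups, gave 10 calls, 8 of them among the 205.

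A set of 7 named genes passed the test under every alternative run: Nqo1, Id1 and Plk3, which rose, and Sesn2, Cilp, Mfap4 and Cxcl5, which fell. Nqo1, an NRF2-driven quinone reductase (ENSMUSG00000003849, chromosome 8, 107388225 to 107403206), had 78.5, 86.1, 79.0 and 64.1 CPM in irradiated APTK I to IV, against 51.0, 43.2, 40.7 and 44.8 CPM in APTK I to IV. All 4 irradiated libraries were higher than all 4 plain ones, with IV the lowest of its group, and the log2 fold change was 0.77 ± 0.0871 SE (adjusted p = 4.42e-05). Id1, a BMP-induced inhibitor of basic helix-loop-helix factors (ENSMUSG00000042745, chromosome 2, 152736251 to 152737410), had 11.9, 8.72, 11.5 and 8.43 CPM in irradiated APTK and 5.76, 5.47, 5.38 and 5.52 CPM in APTK. Its groups were well apart, with II and IV the lower irradiated libraries, and the log2 fold change was 0.88 ± 0.142 (adjusted p = 0.00250). Plk3, a polo-like kinase of stress signalling (ENSMUSG00000028680, chromosome 4, 117128655 to 117133963), rose by 0.61 ± 0.0950 on the log2 scale, with 11.1, 10.8, 12.4 and 10.6 CPM in irradiated APTK and 7.14, 7.27, 7.72 and 7.30 CPM in APTK. Here IV lay with the other irradiated libraries.

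Sesn2, a leucine sensor that restrains mTORC1 and is a target of both ATF4 and p53 (ENSMUSG00000028893, chromosome 4, 132492032 to 132510501), had 80.6, 87.5, 76.6 and 77.0 CPM in irradiated APTK, against 109.8, 108, 117 and 112 CPM in APTK. The 4 irradiated libraries lay close together and below every plain one, IV among them, for a log2 fold change of -0.47 ± 0.0567 (adjusted p = 4.42e-05). Cilp, a matrix protein of cartilage and fibroblasts (ENSMUSG00000042254, chromosome 9, 65265180 to 65280605), had 11.7, 13.8, 17.8 and 13.2 CPM with irradiation and 26.2, 20.9, 22.9 and 23.2 CPM without, a log2 fold change of -0.71 ± 0.105. Mfap4, a microfibril-associated glycoprotein, had 4.62, 4.82, 5.16 and 5.54 CPM in irradiated APTK and 8.95, 8.11, 8.70 and 8.23 CPM in APTK (-0.75 ± 0.116). For both genes IV was with its group. Cxcl5, a neutrophil-attracting chemokine (ENSMUSG00000029371, chromosome 5, 90759360 to 90761624), had 7.20, 6.08, 6.94 and 9.29 CPM in irradiated APTK and 12.8, 14.7, 15.4 and 11.9 CPM in APTK. The groups did not overlap, IV was the highest irradiated library, and the log2 fold change was -0.88 ± 0.148 (adjusted p = 0.00769).

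**Figure D2:**
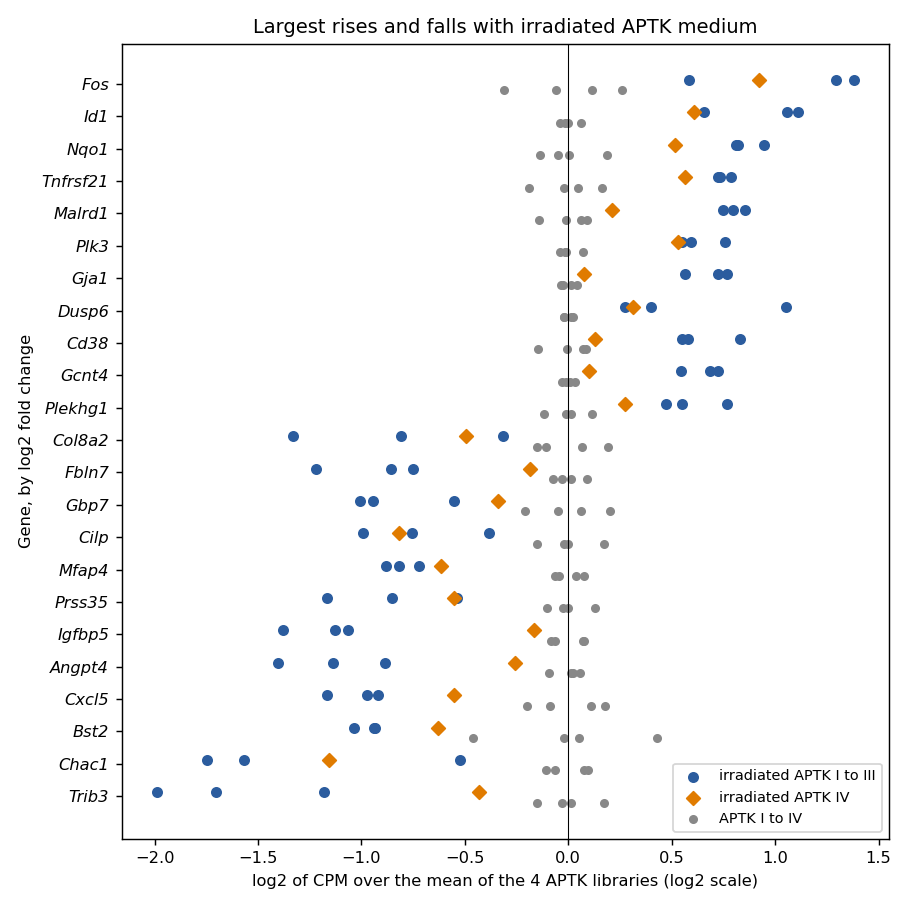
Genes from the largest rises and falls among called genes whose groups did not overlap, one gene per row. Points give log2 CPM of each library minus the mean log2 CPM of the 4 APTK libraries: irradiated APTK I to III (blue circles), irradiated APTK IV (orange diamonds) and APTK (grey, drawn slightly below). IV lies between the other irradiated libraries and the plain ones for most genes, close to zero for Gja1 and Gcnt4 and among I to III for genes such as Fos, Dusp6, Cilp, Chac1 and Col8a2.

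The largest rises by this rule included, after Fos and the genes above, Tnfrsf21 (a death domain receptor, 0.69), Malrd1 (0.66), Gja1 (connexin 43, the main gap junction protein of fibroblasts, 0.55), Dusp6 (0.54), Cd38 (an NAD-consuming ectoenzyme, 0.53), Gcnt4 (0.53) and Plekhg1 (0.52). Gja1 had 15.1, 17.4, 16.9 and 10.8 CPM in irradiated APTK and 9.99, 10.3, 10.5 and 10.1 CPM in APTK. Its library IV was barely above the plain range, and its log2 fold change was 0.55 ± 0.107 with IV and 0.69 without it. The largest falls beside those described in other paragraphs were Angpt4 (-0.84), Igfbp5 (-0.84), Prss35 (-0.77), Gbp7 (-0.69), Fbln7 (-0.69) and Col8a2 (-0.67). Angpt4, an angiopoietin ligand of the receptor TEK, had 20.1, 14.05, 16.9 and 31.2 CPM in irradiated APTK and 37.8, 34.9, 37.6 and 38.7 CPM in APTK. IV was nearer to the plain libraries, and the fall was -1.13 on the log2 scale without it. Of the 205 called genes, 22 passed in each of the 8 fits that left out 1 library: the 7 above, Chac1, Tnfrsf21, Plekhg1, Tnc, Prss35, Dkk2, Ctsk, Nop14, Lifr, Sox11, Ccdc3, Parp10, Ifi47 and the uncharacterised 5930403N24Rik and F730043M19Rik. Every other call named in the text was lost in at least 1 of these fits. Of the 22 that passed in each fit, some are given here, chosen after their values were seen. Ctsk (cathepsin K, 0.33) and Nop14 (0.33) rose, and Lifr (the LIF receptor, -0.49), Sox11 (-0.37), Ccdc3 (-0.61) and Parp10 (-0.63) fell. The groups overlapped for Parp10, with 39.3 CPM in irradiated APTK IV and 36.5 CPM in APTK I. Parp10 shares exon sequence with Plec and Ifi47 with Olfr56 on the same strand, so their counts are uncertain.

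A subset of integrated stress response genes fell with irradiated APTK medium. Of 30 tested members of this list, which holds ATF4 targets and amino acid transporters, 7 fell and none rose, where 0.837% of all genes tested fell: Chac1, Trib3, Sesn2, Ddit3, Cebpg, Slc1a4 and Slc3a2. Chac1 degrades glutathione and Trib3 is a pseudokinase that feeds back on ATF4 and AKT, and both are among the most responsive ATF4 targets. The list's median log2 fold change was -0.11, beside 0.0036 over all genes. Windows of 300 bases around the starts of both genes are shown because the element that ATF4 and C/EBP factors bind together (TGATGNAA, searched on both strands) occurs in each. They run from 250 bases before to 50 after the RefSeq start, GRCm38.p6, with the match in capitals. Chac1 is at chr2:119350992-119351291 on the plus strand and Trib3 at chr2:152344011-152344310 on the minus strand.
Chac1: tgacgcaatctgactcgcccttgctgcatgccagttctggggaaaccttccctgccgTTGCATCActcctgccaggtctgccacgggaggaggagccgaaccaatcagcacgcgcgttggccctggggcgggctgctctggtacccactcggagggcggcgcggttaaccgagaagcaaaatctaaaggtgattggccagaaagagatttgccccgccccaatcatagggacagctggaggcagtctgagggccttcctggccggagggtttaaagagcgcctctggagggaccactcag
Trib3: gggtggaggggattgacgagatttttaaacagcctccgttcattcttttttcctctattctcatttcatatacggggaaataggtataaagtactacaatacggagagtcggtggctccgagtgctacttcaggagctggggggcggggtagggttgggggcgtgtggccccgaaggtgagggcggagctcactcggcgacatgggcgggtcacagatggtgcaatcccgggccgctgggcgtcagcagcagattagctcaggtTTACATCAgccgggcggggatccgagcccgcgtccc
The match began at position -193 in Chac1 and at 14 in Trib3, counted from 0 at the start. Such a match was in 10 of the 28 tested list members that had a window (35.7%), in 3 of the 7 called ones, and in 3.97% of all 32851 windows. A match describes letters only and shows no binding.

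Chac1 (ENSMUSG00000027313) had 9.12, 21.3, 10.3 and 13.7 CPM in irradiated APTK, against 32.6, 29.2, 28.4 and 32.3 CPM in APTK. Every irradiated library was lower than every plain one, II being the least so, and the log2 fold change was -1.19 ± 0.170 (adjusted p = 0.00250). It was called in each fit that left out 1 library, but not in the fit of the 8 libraries alone (adjusted p = 0.125). Trib3 (ENSMUSG00000032715) had 23.4, 41.0, 28.5 and 68.9 CPM in irradiated APTK and 105, 83.8, 90.9 and 93.8 CPM in APTK, a log2 fold change of -1.20 ± 0.247 (adjusted p = 0.0287). IV lay closer to the plain libraries than to I to III, the value without it was -1.60, and leaving out any 1 of the other 7 libraries ended the call (adjusted p from 0.0552 without APTK I to 0.0923 without irradiated APTK III). Ddit3, the stress factor CHOP, had 55.2, 65.2, 55.2 and 61.7 CPM with irradiation and 81.8, 72.8, 77.4 and 81.0 CPM without, a fall of -0.40 ± 0.0752 on the log2 scale (adjusted p = 0.00898, and 0.0512 without irradiated APTK I). Cebpg, a partner of ATF4, fell by 0.35 on that scale, and the amino acid carriers Slc1a4 and Slc3a2 by 0.31 and 0.22. Atf4 itself averaged 349 CPM in irradiated APTK and 394 CPM in APTK (-0.17, adjusted p = 0.0943), while Asns (asparagine synthetase, 0.08) and Psat1 (-0.02) did not pass. The count of falls was 10 without IV, 2 without irradiated APTK I, 3 without irradiated APTK III or APTK III, 4 without APTK IV, 5 without APTK I or APTK II, and 7 without irradiated APTK II. The fit of the 8 libraries alone gave 1 fall. Over all genes tested, 3.84% fell without IV.

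Irradiated APTK medium also went with lower levels of type I interferon-stimulated genes. Of 31 tested members, 7 fell (Zbp1, Oas1b, Ifi44, Bst2, Irf7, Stat2 and Ifi35) and none rose, where 0.837% of all genes fell, and all 31 had a log2 fold change below 0, with a median of -0.83. Bst2 (tetherin, which holds budding virus at the cell surface, ENSMUSG00000046718) had 27.0, 25.3, 27.1 and 33.5 CPM in irradiated APTK, against 37.7, 53.8, 69.9 and 51.1 CPM in APTK. The groups did not overlap, IV being the highest irradiated and APTK I the lowest plain library, and the log2 fold change was -0.91 ± 0.178 (adjusted p = 0.0186). Irf7, the interferon regulatory factor that amplifies the response, had 24.7, 25.7, 20.3 and 32.6 CPM with irradiation and 30.6, 49.7, 55.2 and 44.4 CPM without (-0.80 ± 0.173, adjusted p = 0.0301). Here irradiated APTK IV was above APTK I, so the groups overlapped. Bst2 lost its call without APTK II, APTK III or irradiated APTK I, II or III (adjusted p 0.0636 to 0.0723), and Irf7 without these or APTK IV (0.0729 to 0.104). Isg15, a ubiquitin-like modifier, had 12.4, 16.1, 11.3 and 19.4 CPM in irradiated APTK and 14.9, 29.4, 34.5 and 27.97 CPM in APTK, which overlapped and did not pass (-0.85 ± 0.258, adjusted p = 0.115).

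The windows of Bst2 and Stat2, one of the factors that carry the interferon signal to the nucleus, are shown for the interferon-stimulated response element (GAAA, any 2 bases, GAAA, on both strands). Capitals mark the matches, of which Bst2 has 2 that overlap. Both are RefSeq windows of GRCm38.p6, Bst2 at chr8:71537423-71537722 on the minus strand and Stat2 at chr10:128270248-128270547 on the plus strand.
Bst2: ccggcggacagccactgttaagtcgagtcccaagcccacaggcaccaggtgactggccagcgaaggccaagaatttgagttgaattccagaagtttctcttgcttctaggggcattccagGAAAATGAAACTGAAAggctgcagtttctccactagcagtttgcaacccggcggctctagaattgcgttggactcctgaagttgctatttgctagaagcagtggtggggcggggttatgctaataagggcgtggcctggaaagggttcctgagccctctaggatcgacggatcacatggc
Stat2: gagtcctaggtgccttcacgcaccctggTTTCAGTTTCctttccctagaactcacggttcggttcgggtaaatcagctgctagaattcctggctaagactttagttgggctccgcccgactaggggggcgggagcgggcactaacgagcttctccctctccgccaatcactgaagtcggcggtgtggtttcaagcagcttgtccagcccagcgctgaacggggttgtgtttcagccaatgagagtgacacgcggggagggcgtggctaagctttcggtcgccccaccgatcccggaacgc
The element was in 12 of the 20 tested interferon-stimulated genes with a window (60%), in 2 of the 5 called ones with a window, and in 3.44% of all windows.

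Plain libraries also varied in the interferon list. The median level of its 31 genes relative to the APTK mean was -1.01, -0.64, -1.32 and -0.39 on the log2 scale in irradiated APTK I to IV, and -0.55, 0.18, 0.33 and 0.04 in APTK I to IV. APTK I was thus lower than irradiated APTK IV. Without APTK I the count of falls was 17 and the median -1.02. Without irradiated APTK IV they were 26 and -1.004, where 3.84% of all genes fell. The count was 0 without APTK II, APTK III, irradiated APTK I or irradiated APTK III, and 1 without APTK IV or irradiated APTK II. It was also 0 in the fit of the 8 libraries alone. With both IV and APTK I left out, an alternative chosen after the data were seen, 29 of the 31 fell. Of 25 interferon-inducible GTPases and antigen presentation genes, 5 fell (Gbp7, Psmb8, H2-T23, Irgm2 and Nlrc5), with a median of -0.56. That count was 14 without irradiated APTK IV, 10 without APTK I, and 0 to 2 without any other library. With the 8 libraries alone it was 0. B2m, the invariant chain of class I molecules, averaged 454 CPM in irradiated APTK and 449 CPM in APTK (0.01). Of 15 nucleic acid sensors and interferon regulators, Irf9 (-0.48) and Adar (-0.36) fell, 3 without APTK I, 4 without irradiated APTK IV, 2 without irradiated APTK II and none without any 1 of the others. Gbp7, Irgm2 and Irf9 share exon sequence with another gene on the same strand, so their counts are uncertain.

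Some metabolic genes fell by small amounts. Of 29 cholesterol and fatty acid synthesis genes, 5 fell and none rose, with a median of -0.17, where 0.837% of all genes fell. Among those that fell were Pmvk, Cyp51, Msmo1 and Sqle, all enzymes of cholesterol synthesis. Sqle, squalene epoxidase, had 65.2, 58.9, 55.3 and 60.3 CPM in irradiated APTK, against 70.1, 79.5, 71.8 and 70.8 CPM in APTK. The groups were apart, IV lay inside its own group, and the log2 fold change was -0.29 ± 0.0637 (adjusted p = 0.0212, and 0.0697 to 0.103 without APTK II, APTK III or irradiated APTK III). Pmvk, phosphomevalonate kinase, fell by 0.44 ± 0.102 on the log2 scale, and Hmgcs1 missed the threshold (-0.24, adjusted p = 0.0807). Fasn, fatty acid synthase, did not pass (-0.01). The count was 8 without irradiated APTK IV, where 3.84% of all genes fell. It was 4 without APTK I, 3 without irradiated APTK II, 1 without APTK IV or irradiated APTK I, and 0 without APTK II, APTK III or irradiated APTK III. With the 8 libraries alone it was 0.

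Of 37 glycolysis and hypoxia response genes, 4 fell and none rose (median -0.12), where 0.837% of all genes fell. The glucose transporter Slc2a1 had 95.3, 69.4, 78.7 and 72.8 CPM in irradiated APTK, against 93.0, 97.6, 96.5 and 96.6 CPM in APTK (-0.28 ± 0.0689, adjusted p = 0.0391). Irradiated APTK I was as high as the plain libraries, so the difference rested on II to IV. The phosphofructokinases Pfkl and Pfkp fell by 0.26 and 0.20 on the log2 scale, and Pdk1, a kinase that inhibits pyruvate dehydrogenase, by 0.23. The lactate exporter Slc16a3 (-0.37, adjusted p = 0.0750) and the mitophagy receptor Bnip3 (-0.32, adjusted p = 0.0636) did not pass. Without irradiated APTK IV there were 6 falls and 1 rise, where 3.84% of all genes fell and 4.61% rose. The count of falls was 3 without irradiated APTK II, 2 without APTK I or irradiated APTK I, 1 without irradiated APTK III and 0 without APTK II, III or IV. With the 8 libraries alone it was 0.

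The NRF2 antioxidant list lay above 0, with Nqo1 as its 1 call among 22 tested and a median of 0.16, where 0.547% of all genes rose. In irradiated APTK I to III its median level was 0.19, 0.20 and 0.21 above the APTK mean on the log2 scale, while IV was at -0.02, inside the APTK range of -0.06 to 0.07. Without IV, 10 of the 22 rose, where 4.61% of all genes did. Among them were Txnrd1 (thioredoxin reductase, 0.27), Srxn1 (sulfiredoxin, 0.46), Gclc (glutathione synthesis, 0.42) and Hmox1 (haem oxygenase, 0.59). Hmox1 had 317, 278, 353 and 176 CPM in irradiated APTK and 261, 201, 181 and 193 CPM in APTK. Library IV was below the plain range and the groups overlapped, so that with IV it did not pass (0.42, adjusted p = 0.230). Without APTK I the count was 3, and without any other library 1. Prdx6, an antioxidant peroxiredoxin outside the list and named after its values were seen, rose by 0.34.

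**Figure D3:**
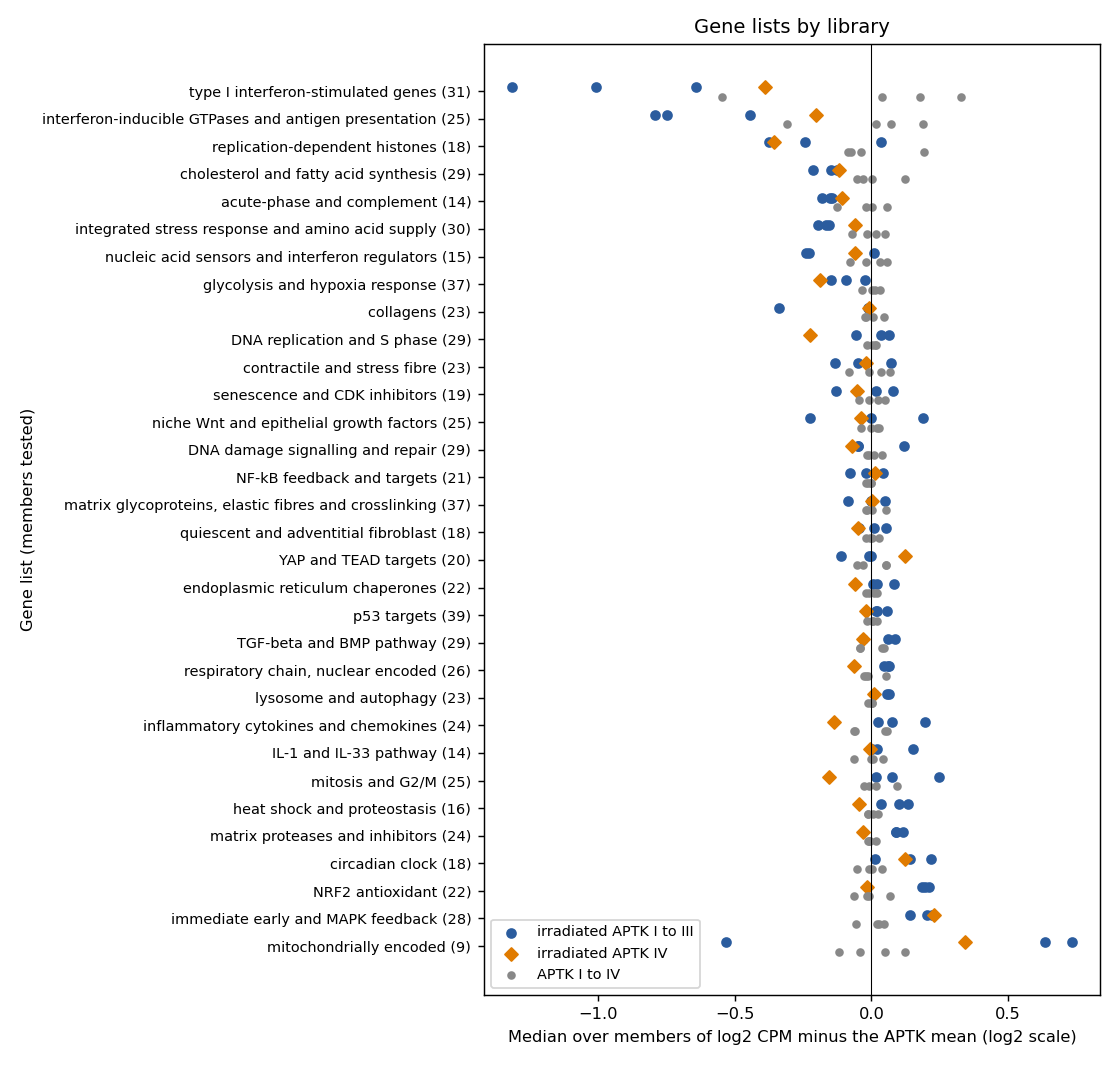
Median over the tested members of each gene list (rows, number tested in brackets) of log2 CPM minus the mean log2 CPM of the 4 APTK libraries. Blue circles are irradiated APTK I to III, orange diamonds irradiated APTK IV and grey points the APTK libraries, drawn slightly below. The interferon-stimulated genes reach -1.32 in irradiated APTK III, with APTK I at -0.55, and the NRF2 list lies at 0.19 to 0.21 in I to III but at -0.02 in IV.

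Genes of growth factor signalling through MAP kinases rose in a few cases. Of 28 immediate early and MAPK feedback genes, Fos, Dusp4 and Dusp6 rose and none fell, where 0.547% of all genes rose. The list's median log2 fold change was 0.26, and 0.12 without irradiated APTK IV. Its median level was 0.20, 0.22, 0.14 and 0.23 above the APTK mean in irradiated APTK I to IV, with IV the highest, and the APTK libraries lay between -0.06 and 0.05. Fos, a subunit of the AP-1 transcription factor, had 13.4, 12.6, 7.72 and 9.76 CPM in irradiated APTK and 5.57, 6.16, 4.94 and 4.16 CPM in APTK. All irradiated libraries were above all plain ones, III being the lowest, and the log2 fold change was 1.04 ± 0.206 (adjusted p = 0.0174). Dusp6, a phosphatase that switches ERK off, had 36.5, 62.5, 39.9 and 37.4 CPM in irradiated APTK and 29.8, 29.8, 30.5 and 30.7 CPM in APTK. The 4 irradiated libraries were all higher, II by far the most (0.54 ± 0.122, adjusted p = 0.0303, and 0.32 without II). The call of Fos ended without APTK III, APTK IV or irradiated APTK I or II (adjusted p 0.0579 to 0.0697), and that of Dusp6 without any 1 plain library or irradiated APTK III (0.0576 to 0.0947). Dusp4 had 250.3, 208, 261 and 161 CPM with irradiation and 148, 162, 152 and 158 CPM without, with IV inside the plain range (0.50 ± 0.101). Egr2 (0.86, adjusted p = 0.0635), Dusp5 (0.67) and Etv4 (0.51) did not pass. Without irradiated APTK IV there were 8 rises and 1 fall (Fosl2, -0.43), where 4.61% of all genes rose and 3.84% fell. The count of rises was 3 without irradiated APTK II, 2 without APTK I or APTK II, 1 without APTK IV, irradiated APTK I or irradiated APTK III, and 0 without APTK III.

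Of 39 p53 targets tested, Plk3 rose and Sesn2 fell, with a median of 0.04, and of 29 DNA damage signalling and repair genes none passed (median 0.02). Over all genes 1.38% passed, so a list of such a size with no call is not a result about its members. Cdkn1a, the p53-induced inhibitor of cyclin-dependent kinases (ENSMUSG00000023067), had 129, 115, 122 and 138 CPM in irradiated APTK, against 115, 138, 139 and 129 CPM in APTK. The groups overlapped fully, and the log2 fold change was -0.05 ± 0.0693 (adjusted p = 0.828). Mdm2, the ubiquitin ligase that p53 induces as its own brake, had 202, 227, 197 and 178 CPM with irradiation and 205, 205, 191 and 203 CPM without, also overlapping (0.0011 ± 0.0690). Trp53 was at 0.09 ± 0.118, Ccng1 at 0.08 and Bax at 0.06. Of the cell cycle lists, none of 29 replication genes (median -0.06), 25 mitosis genes (0.09) or 18 histone genes (-0.20) passed, and of 19 senescence genes and CDK inhibitors Igfbp5 (-0.84) and Cdkn2c (-0.30) fell. Mki67, a proliferation marker, averaged 11.98 ± 2.34 CPM in irradiated APTK and 12.02 ± 1.08 CPM in APTK (SD, n = 4 each).

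Of 24 tested cytokine and chemokine genes, Ptgs2 rose and Cxcl5 fell, and none of 21 NF-kB feedback genes or 14 IL-1 and IL-33 pathway genes passed, where 1.38% of all genes did. Ptgs2, cyclooxygenase 2, had 684, 659, 589.8 and 560.0 CPM in irradiated APTK and 508, 541, 469 and 462 CPM in APTK. Its groups did not overlap, and the log2 fold change was 0.33 ± 0.0766 (adjusted p = 0.0274, and 0.0526 to 0.116 without APTK III, APTK IV or irradiated APTK I, II or III). The monocyte attractant Ccl2 had 63.4, 73.7, 68.0 and 36.0 CPM in irradiated APTK and 40.4, 43.1, 48.9 and 40.7 CPM in APTK. Libraries I to III were above and IV below the plain range, so that Ccl2 did not pass with IV (0.47, adjusted p = 0.202) and did without it (0.66, adjusted p = 0.00144). The IL-6 family cytokine Lif was at 0.53 ± 0.147 (adjusted p = 0.0664), Il6 at 0.44 (adjusted p = 0.495) and the neutrophil attractant Cxcl1 at -0.45 (adjusted p = 0.0802). Without IV the inflammatory list had 6 rises and 4 falls, where 4.61% of all genes rose and 3.84% fell. Ccl2, Ccl7, Ccl11, Lif, Csf1 and Ptgs2 were higher, and Cxcl1, Cxcl3, Cxcl5 and Cxcl12 lower. Ptx3, an acute-phase pattern receptor, had 7.15, 4.70, 5.96 and 13.2 CPM in irradiated APTK and 11.5, 10.98, 8.96 and 9.93 CPM in APTK, where I to III were below and IV above the plain libraries (-0.39, adjusted p = 0.433, and -0.80 without IV).

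The largest called rises of the comparison were those of Mmp10, Spp1 and Mmp13, which act in the matrix. Of 23 collagens Col8a2, a short-chain network collagen, fell (-0.67 ± 0.136), and of 37 matrix glycoproteins Spp1 and Tnc rose and Cilp and Mfap4 fell, where 1.38% of all genes passed. Spp1, osteopontin (ENSMUSG00000029304, chromosome 5, 104435118 to 104441050), had 60.6, 64.0, 67.0 and 10.6 CPM in irradiated APTK I to IV, against 14.3, 12.1, 14.7 and 10.9 CPM in APTK I to IV. Libraries I to III were all far above the plain ones, and IV was below all 4 of them. The log2 fold change was 1.94 ± 0.374 with IV (adjusted p = 0.0198) and 2.29 without it (adjusted p = 3.05e-15). Leaving out another library ended the call, at adjusted p of 0.0528 to 0.0763, except for APTK I. Spp1 overlaps the gene Gm42793 on the same strand. The matrix metalloproteinase Mmp10, stromelysin 2 (ENSMUSG00000047562, chromosome 9, 7502352 to 7510240), had 6.93, 8.37, 6.91 and 0.859 CPM in irradiated APTK and 1.08, 1.72, 1.28 and 1.06 CPM in APTK. As for Spp1, I to III were above and IV below the plain range (2.11 ± 0.480, adjusted p = 0.0413 with IV, and 2.51 without it). The call of Mmp10 ended without any 1 of the other 7 libraries (adjusted p 0.0912 to 0.127).

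Mmp13, collagenase 3, had 0.879, 0.860, 1.05 and 0.390 CPM in irradiated APTK and 0.269, 0.382, 0.256 and 0.0424 CPM in APTK, all irradiated libraries being above all plain ones (1.69 ± 0.363, adjusted p = 0.0178). Its call ended without APTK III, APTK IV, irradiated APTK I or irradiated APTK III (adjusted p 0.0629 to 0.0954). The windows of both proteases are shown because AP-1, the factor that holds Fos, has its element (TGANTCA, both strands, in capitals) near each start. They are RefSeq windows of GRCm38.p6 on the plus strand, Mmp10 at chr9:7502092-7502391 and Mmp13 at chr9:7272264-7272563.
Mmp10: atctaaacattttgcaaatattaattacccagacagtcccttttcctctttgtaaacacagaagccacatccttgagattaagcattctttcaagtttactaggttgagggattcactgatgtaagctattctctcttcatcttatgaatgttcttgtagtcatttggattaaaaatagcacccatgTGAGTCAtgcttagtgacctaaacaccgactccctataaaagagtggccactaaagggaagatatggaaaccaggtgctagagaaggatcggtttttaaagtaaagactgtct
Mmp13: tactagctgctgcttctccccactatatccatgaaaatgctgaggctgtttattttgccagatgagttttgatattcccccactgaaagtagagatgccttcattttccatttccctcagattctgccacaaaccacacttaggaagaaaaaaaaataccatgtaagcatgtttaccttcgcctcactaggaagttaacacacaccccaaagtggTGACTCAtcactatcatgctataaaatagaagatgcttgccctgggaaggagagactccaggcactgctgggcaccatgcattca
The element began at position -63 in Mmp10 and -35 in Mmp13. It was in 5 of the 15 tested members of the protease list with a window (33.3%), in 7 of 20 of the interferon-stimulated list (35%) and in 7.81% of all windows.

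Of the 24 matrix proteases and inhibitors, Mmp10 and Mmp13 rose and Adamts1 fell, with a median of 0.05. Adamts1, a proteoglycan-cleaving protease, had 132, 118, 124 and 199 CPM in irradiated APTK and 209, 209.8, 191 and 218 CPM in APTK. IV lay within the plain range, and the log2 fold change was -0.53 ± 0.125 with it and -0.73 without it. Its call ended without any 1 of the other 7 libraries. The list had 7 rises and 3 falls without irradiated APTK IV, where 4.61% of all genes rose and 3.84% fell. It had 3 rises without irradiated APTK II, 1 rise without APTK I or APTK II, and no call without any 1 of the remaining libraries. It also had no call in the fit of the 8 libraries alone. Tnc, tenascin C, a matrix protein of wounds and tumours, had 5573, 4959.95, 5351 and 3934 CPM in irradiated APTK and 3837, 3557, 3312 and 3842 CPM in APTK. All irradiated libraries were higher, IV only just (0.45 ± 0.0776, adjusted p = 0.00631). Col1a1 had 11369.7, 7821, 10706 and 12278 CPM in irradiated APTK and 9836, 11077, 10325 and 12985 CPM in APTK, with II the lowest and the groups overlapping (-0.07 ± 0.124). Acta2, the smooth muscle actin of myofibroblasts, averaged 3239 ± 176 CPM in irradiated APTK and 3407 ± 179 CPM in APTK (-0.07, SD, n = 4 each). No contractile or YAP target gene passed, where 1.38% of all genes did, which is not a result about these genes. Without irradiated APTK IV, where 8.45% of all genes passed, the contractile list (23 tested) had 1 fall. The YAP list (20 tested) then had 3 rises and 1 fall.

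**Figure D4:**
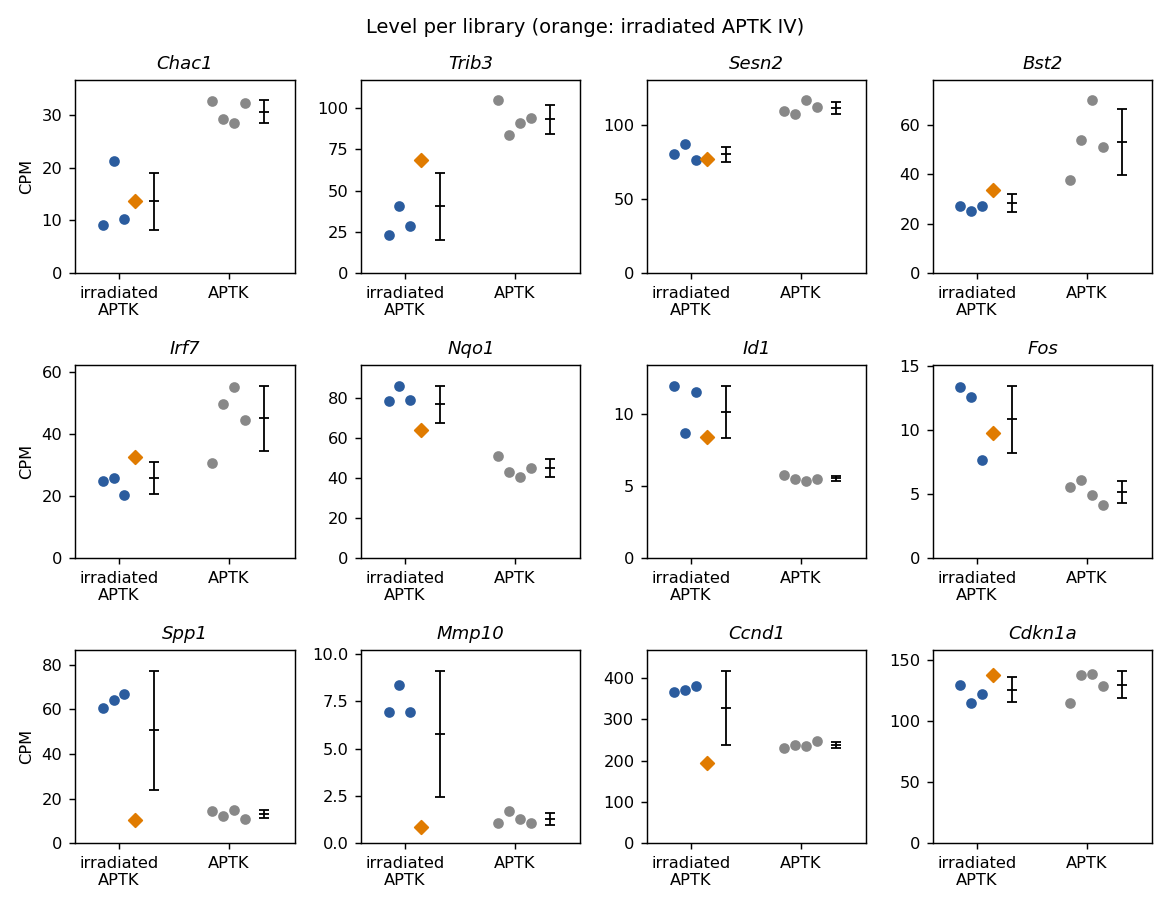
CPM of 12 genes per library, irradiated APTK left and APTK right in each panel, with irradiated APTK IV as an orange diamond and the group mean ± SD (n = 4) beside the points. Chac1, Sesn2 and Bst2 are lower in all 4 irradiated libraries, Spp1 and Mmp10 are higher in I to III only (60.6 to 67.0 and 6.91 to 8.37 CPM), and Cdkn1a overlaps.

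Among secreted niche and growth factors, Ereg rose and Dkk2 fell of 25 tested, where 1.38% of all genes passed. Dkk2, a secreted Wnt modulator, had 209, 235, 190.3 and 277 CPM in irradiated APTK and 318, 310.4, 322 and 321 CPM in APTK. All irradiated libraries were lower, IV the least so (-0.48 ± 0.0740, adjusted p = 0.00158). Epiregulin (Ereg), an EGF receptor ligand, had 20.1, 23.6, 22.3 and 14.8 CPM in irradiated APTK and 14.3, 15.03, 12.4 and 14.004 CPM in APTK, with IV inside the plain range (0.53 ± 0.128 with IV, 0.66 without it). Its call ended without any 1 of the other 7 libraries (adjusted p 0.0630 to 0.143). Of 29 TGF-beta and BMP pathway genes, Id1 rose and the activin subunit Inhbb fell (-0.37), while Id2 (0.24) and Id3 (0.35) did not pass with IV and did without it. In the clock list of 18, the repressor Nr1d2 rose (0.31) and Nfil3 fell (-0.42). The lists of acute-phase, respiratory chain, heat shock, lysosome and quiescent fibroblast genes held no call. At a share of 1.38% over all genes, this is not a result about their members. Without irradiated APTK IV, 8.45% of all genes passed. Heat shock genes then had 4 rises and 1 fall, and quiescent fibroblast genes 2 rises and 2 falls. Acute-phase genes had 1 fall, lysosome genes 1 rise and respiratory chain genes no call. The 9 tested mitochondrially encoded genes had a median of 0.40 and no call, with library medians of 0.63, 0.74, -0.53 and 0.34 in irradiated APTK I to IV, and 2 of them rose when irradiated APTK III was left out.

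Ccnd1, cyclin D1 of the G1 phase, was a case where IV decided the call. It had 366, 369.6, 379.9 and 194 CPM in irradiated APTK I to IV, against 229, 238, 235 and 247 CPM in APTK I to IV. Libraries I to III were closely alike and above all plain ones, whereas IV was below all of them. With IV the log2 fold change of 0.46 ± 0.147 did not pass (adjusted p = 0.129), and without it the value was 0.65 (adjusted p = 9.35e-08).

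The effect of irradiation was then compared between the organoid lines. In APTKA medium 108 genes differed between irradiated and plain medium (0.729% of genes tested), 67 higher (0.452%) and 41 lower (0.277%). The difference of the effects, tested in the same fit, passed for 27 genes (0.182%). Id1, Tnfrsf21, Plk3, Gja1, Dusp6 and Lif were among those with a more positive effect in APTK medium. For Id1 the effect was 0.88 in APTK and -0.15 in APTKA medium on the log2 scale, a difference of 1.03 ± 0.205 (adjusted p = 0.0250). For Plk3 it was 0.61 and -0.18, a difference of 0.79 ± 0.130 (adjusted p = 0.00931). Dusp6 stood at 0.54 in APTK and -0.47 in APTKA medium, and Lif at 0.53 and -0.38. Spry2, another brake on receptor kinase signalling, differed because it fell in APTKA medium (-0.76) and stood at 0.03 in APTK medium.

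Genes with a more negative effect in APTK medium included stress response and metabolic genes. Sesn2 was at -0.47 in APTK and 0.02 in APTKA medium, a difference of -0.50 ± 0.0800 (adjusted p = 0.00931). Slc7a11, the cystine carrier, was at -0.13 in APTK and rose by 0.61 in APTKA medium, and the retinaldehyde dehydrogenase Aldh1a3 was at 0.02 and 0.88. Sqle (-0.29 and 0.18), Pfkp (-0.20 and 0.15), Nfil3 (-0.42 and 0.19) and the adrenergic receptor Adra1b (-0.64 and 0.31) fell in APTK medium, and none of these passed in APTKA medium. Lrrc17 was at -0.43 and 0.38 and passed in neither. Of the integrated stress response list, 4 of 30 members differed between the lines, where 0.182% of all genes did. The list's median effect was -0.11 in APTK and 0.08 in APTKA medium. No interferon-stimulated gene passed the test of the difference, which at that share is not a result about these genes. Their median effect was -0.83 in APTK and -0.68 in APTKA medium, where only Ifi27 passed. Nqo1 rose in both, by 0.77 in APTK and 0.76 in APTKA medium (difference 0.0089 ± 0.125). Chac1 averaged 1.49 CPM in irradiated APTKA and 1.48 CPM in APTKA libraries, far below its level in either APTK group, so its effect there (0.0066 ± 0.315) was poorly measured. Without irradiated APTK IV the difference passed for 307 genes, and without APTK II or APTK IV for 7.

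**Figure D5:**
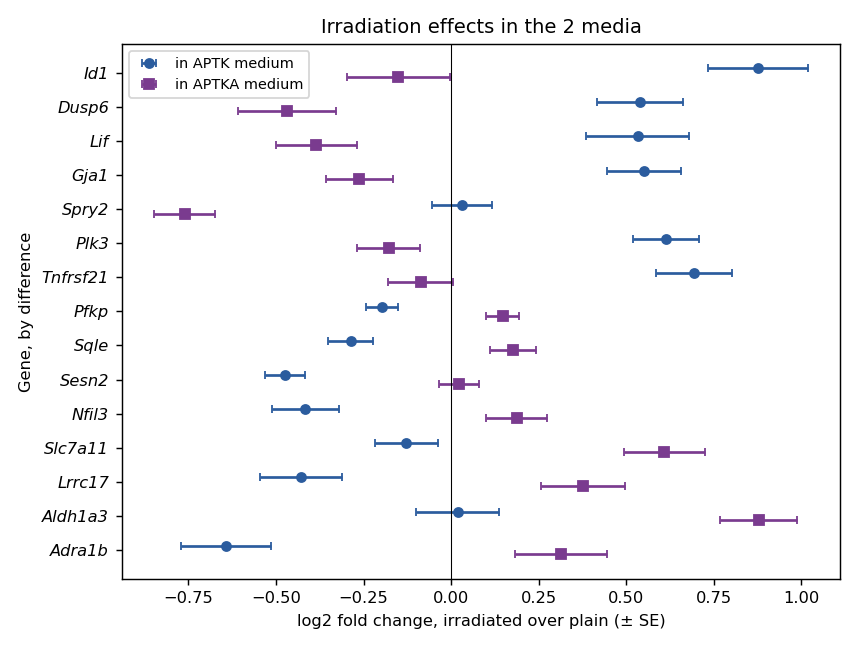
Log2 fold change of irradiated over plain medium ± SE for the 15 named genes whose effects differed between the lines, APTK medium (blue circles) above APTKA medium (purple squares) in each row. Id1, Dusp6, Lif, Gja1, Plk3 and Tnfrsf21 are above zero in APTK and below it in APTKA medium, and Sqle, Pfkp and Nfil3 show the opposite.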

How the data were processed

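RNA-seq of polyadenylated RNA was deposited by the authors as whole-number counts of reads per Ensembl gene, not normalised, 1 table per library. Per the submitters' processing notes the build was mm10 and the tools were featureCounts 1.5.0-p1, STAR 2.5.2a and bcl2fastq 2.20.0.422. For annotation release, strand setting and multi-mapped reads, the choice is not given in the sources used here. Of 47729 identifiers 47224 were matched to a symbol. Counting may share out or discard reads of near-identical copies, which touches interferon-inducible, guanylate-binding, major histocompatibility and histone families. Of 90 named genes 25 share exon sequence with another gene, 7 on the same strand (Ddit3, Pdgfra and Cebpg among them), and without a stated strand setting reads of opposite genes (as for Plk3, Mfap4 or Cdkn1a) cannot be told apart.

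Counts were fitted in R 4.3.3 with edgeR 4.0.16 (TMM scaling, the default expression filter by group, robust quasi-likelihood fits) in 1 model of 5 group means over all 20 libraries, tested for irradiated APTK minus APTK over 14820 genes, for the same contrast in APTKA medium and for the difference of both. Adjusted p-values follow Benjamini and Hochberg, with a threshold of 0.05. SE was taken from the F statistic (absolute fold change on the log2 scale divided by its root), and CPM used TMM-scaled totals. Log2 CPM for library positions and list medians per library used a prior count of 2. Replicate pairs of a group differed beyond counting noise (6.04 to 88.4 for chi-square per degree of freedom, over genes with at least 20 counts), so each library was counted once.

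The rule for named genes took the 12 largest rises and falls among called genes whose groups did not overlap (mean log2 CPM, offset 0.5, of at least 2, no predicted genes), up to 4 called members per list, 30 fixed genes and the 5 largest and smallest called differences between the lines. The 32 gene lists, 11 marker lists and this rule were chosen with earlier results of these data known. A few genes that the rule or the lists hold are not reported here. Lists are described by counts and medians, with no set test. Alternatives were other scalings (DESeq2 size factors, upper quartile), other filters, DESeq2 1.42.0, limma 3.58.1 voom with quality weights, the 8 libraries alone, the same 8 with a replicate block, and each library left out. Promoter windows are those of RefSeq.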

Additional observations from a re-analysis of the deposited data

Results flagged for a closer look

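In groups of 4 libraries, a library was singled out when its gap to the nearest other was a large share of the group's range, which chance gives for about 1 in 20 groups. This held for 8 of the 180 groups formed by the 90 named genes, near the share that chance gives. The single cases are therefore only described. Irradiated APTK IV was the library concerned for Spp1 (10.6 CPM, the others 60.6 to 67.0), Ccnd1 (194 CPM, the others 366 to 379.9) and Adamts1 (199 CPM, the others 118 to 132). Irradiated APTK II was high for Dusp6 (62.5 CPM, the others 36.5 to 39.9) and Bnip3 (57.1 CPM, the others 38.7 to 41.5). In plain APTK, library I was low for Trp53 (13.9 CPM), and library III was low for Mdm2 (191 CPM) and high for Inhbb (28.3 CPM).

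The effect of irradiation differed between APTK and APTKA medium by the test of the difference itself for 15 named genes. The differences on the log2 scale, APTK minus APTKA medium, were 1.03 for Id1, 1.01 for Dusp6, 0.92 for Lif, 0.81 for Gja1, 0.79 for Spry2, 0.79 for Plk3 and 0.78 for Tnfrsf21. They were -0.96 for Adra1b, -0.86 for Aldh1a3, -0.81 for Lrrc17, -0.74 for Slc7a11, -0.60 for Nfil3, -0.50 for Sesn2, -0.46 for Sqle and -0.34 for Pfkp.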

How the results depend on the processing

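The number of calls depended on how the spread was estimated and on single libraries. Against 205 calls (81 higher, 124 lower, 23 at least 2-fold), there were 492 (197, 295 and 31) with no filter on low counts, 439 (209, 230 and 27) with DESeq2, 953 (472, 481 and 85) with voom quality weights, and 10 (6, 4 and 0) with the 8 libraries alone. The replicate block, fitted within the same 8 libraries, gave 24 calls (8, 16 and 3), to be read against the 10 without it. The labels do not say whether the replicate numbers pair the libraries. Same-numbered libraries deviated together by correlations of 0.0122 to 0.0515, and 3 of the 4 irradiated libraries correlated best with their own number. Correlations this small, over 4 numbers, cannot decide whether the libraries were paired. Leaving out irradiated APTK IV and APTK I together, chosen after seeing the data, gave 1147 calls (606, 541 and 112). Leaving out 1 library gave 32 to 1271 calls, 10 to 693 higher, 20 to 578 lower and 1 to 109 of at least 2-fold. DESeq2 size factors, upper quartile scaling and a filter of 1 CPM stayed within 1.5 times, while the share of rises was 39.5% with TMM scaling over all 20 libraries, 49.5% with voom weights, 60% with the 8 libraries alone, 54.5% without IV, 32.8% with upper quartile scaling, 33.3% with the replicate block, 30.8% without APTK I and 31.2% without APTK III. The 27 differences between the lines were 209 with no filter, 9 with the replicate block over 16 libraries, and 7 to 307 with 1 library left out. Of 58 named genes called, 7 passed under every alternative, 45 lost the call in at least 1 fit without a library and none changed sign. Only uncalled genes near 0 turned. With voom weights Spry2 was at -0.0175, Pdgfra at -0.0272 and Mdm2 at -0.0114. With upper quartile scaling Aldh1a3 was at -0.000254, Timp3 at -6.84e-06, Pdgfra at -0.00821 and Mdm2 at -0.0171. With no filter Pdgfra was at -0.00389 and Mdm2 at -0.0129, and with the replicate block at -0.0018 and -0.00681. Mdm2 was at -0.00267 with 1 CPM and -0.00261 with the 8 libraries alone. Without irradiated APTK IV and APTK I, Trp53 was at -0.00677 and Timp3 at -0.0266. Leave-one-out ranges were -0.0992 to 0.46 for Il33, -0.0499 to 0.0914 for Spry2, -0.0388 to 0.0949 for Aldh1a3, -0.00475 to 0.0446 for Timp3, -0.0804 to 0.0749 for Pdgfra, -0.0699 to 0.056 for Mdm2, -0.15 to 0.0785 for Mki67 and -0.15 to 0.0445 for Col1a1. The cause of these changes was not tested. At 17.3 to 29.2 M counts, genes near 1 CPM such as Mmp13 or Il6 rested on few reads.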
